A study of Mus musculus with 20 samples.

Results

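The genes described here are the mouse zinc finger genes whose symbols consist of Zfp and a number. They were chosen by their measured level, a mean of at least 5 CPM (counts scaled to a common library total) over 20 RNA-seq libraries, and Zfp36, which encodes an mRNA decay factor, was left out. Of 372 genes with such a symbol in the count table, 226 met the limit, 17 had no count in any library and the others lay below it. The whole table holds 45706 genes. RNA was measured in primary embryonic fibroblasts of C57BL/6 mice, connective tissue cells grown out of embryos. All cultures lacked c-Rel, an NF-kB subunit, and this genotype alone is written crel-/- below. The second genotype, called knock-in below, carried in addition the RelA-TA-KI allele of RelA, the main activating NF-kB subunit. The labels do not say which residues that allele changes. Each genotype was left unstimulated (0 h) or given bacterial lipopolysaccharide (LPS, 100 ng/ml), interleukin 1 beta (IL-1b, 10 ng/ml) or tumour necrosis factor (TNF, 10 ng/ml) for 0.5, 1 or 3 h after overnight serum starvation. Each genotype, agent and time has 1 library, and the labels do not say how many embryos or cultures lie behind it, so p-values measure how far these libraries scatter, and some of that scatter may be technical.

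Most Zfp genes encode DNA-binding proteins of the C2H2 type, in which a pair of cysteines and a pair of histidines hold a zinc ion and fold a short finger that reads a few bases. Many also carry a KRAB box, a domain that recruits the corepressor Trim28 and through it enzymes that deposit repressive histone methylation, and such proteins are best known for silencing retroelements. KRAB zinc finger genes arose by repeated duplication, lie in clusters of related genes and are as a rule expressed at low levels.

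The stretches below code for 1 finger each and are shown because they are the element that the family shares. They belong to the members with the largest falls and rises after LPS. The capitals mark the codons of the 2 cysteines and 2 histidines that bind zinc, read from the longest coding sequence of each gene in GENCODE on GRCm38 (mm10), and each run holds 63 bases, 5′ to 3′ on the coding strand. They lie in coding exons at chr15:75618465-75618527 (Zfp41, plus strand), chr17:21722473-21722535 (Zfp760, plus strand), chr17:21819731-21819793 (Zfp820, minus strand), chr17:22851892-22851954 (Zfp945, minus strand) and chr1:136626063-136626125 (Zfp281, plus strand).
Zfp41: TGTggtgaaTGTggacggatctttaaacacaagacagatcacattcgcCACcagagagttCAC
Zfp760: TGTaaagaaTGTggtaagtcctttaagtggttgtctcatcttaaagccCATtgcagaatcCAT
Zfp820: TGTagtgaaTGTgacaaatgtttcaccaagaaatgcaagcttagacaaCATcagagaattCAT
Zfp945: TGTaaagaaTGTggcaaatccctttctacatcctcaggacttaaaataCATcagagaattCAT
Zfp281: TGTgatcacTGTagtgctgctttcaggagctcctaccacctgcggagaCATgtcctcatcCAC

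The 226 members had a median mean level of 18.3 CPM, from 5.03 to 236 CPM, and every member had counts in all 20 libraries. Those just inside the limit were Zfp438, Zfp764, Zfp653, Zfp11 and Zfp820, and those just outside, between 4.79 and 4.97 CPM, were Zfp759, Zfp7, Zfp707, Zfp931 and Zfp961. Per kilobase of exon the highest members were Zfp703 (37.4 scaled CPM per kilobase), Zfp521 (30.5), Zfp146 (28.9), Zfp106 (22.7) and Zfp503 (19.0). A search for C2H2 fingers found a median of 10 in 225 members with a translated coding sequence, up to 36 in Zfp142 and 0 in 6 members, among them Zfp185, which encodes a LIM domain protein. A KRAB box was found in 110 members and not in 115. The KRAB members had more fingers (median 12 against 7) and lower levels (median 11.6 against 31.5 CPM). On the chromosomes 131 members lay within 500 kb of another member, 54 lay on chromosome 7 and 31 on chromosome 17. The longest run of neighbours, 19 members on chromosome 17 between 21008941 and 23599487, consisted of KRAB genes alone.

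Total counts lay between 9248151 and 12574135 per library. The TMM scaling factors ranged from 0.979 to 1.12, apart from those of LPS 3 h at 0.723 and 0.732, and levels below are scaled CPM, computed on the scaled library total. All changes are relative to the other polyadenylated RNAs of the same library, so a fall of the genes named here and a gain of other RNA cannot be told apart, nor can fewer expressing cells and less RNA per cell. The 12 fibroblast markers were all measured and summed to 57070 to 88110 CPM, highest at LPS 3 h (86420 and 88110 CPM). The 12 macrophage markers, also all measured, summed to 2354 to 5006 CPM, with 3610 and 4286 at 0 h, 2660 and 3994 at LPS 3 h, 4754 and 5006 at TNF 3 h and 2354 to 3448 over the IL-1b libraries. The 8 neural and Schwann cell markers summed to 25.6 and 78.3 CPM at 0 h and 23.4 to 51.2 CPM over the TNF libraries. They summed to 7.41 to 22.6 CPM over the IL-1b libraries and 6.53 to 19.6 CPM over the LPS libraries. At LPS 3 h they stood at 7.63 and 15.4 CPM. Of these markers Ngfr changed at 0.5 h by -2.63 with IL-1b, -2.2 with LPS and -0.15 with TNF (log2 scale). S100b changed by 0.14, -0.10 and -0.63 in the same order. The 5 endothelial markers summed to 18.9 and 20.4 CPM at 0 h and 61.4 and 76.2 CPM at LPS 3 h. The epithelial and muscle markers summed to at most 30.1 CPM in any library. The muscle markers reached at most 18.6 CPM with IL-1b or LPS and at least 22.9 CPM at 0 h or with TNF. No marker was at 0 in all libraries. The sums hide differences between markers at LPS 3 h. Of the endothelial markers Kdr changed by 2.62 on the log2 scale against 0 h, Cdh5 by -0.31 and Tek by -0.35. Pecam1 and Emcn were too low to be tested. The macrophage markers went both ways, from -0.91 (Csf1r) to 2.67 (Cd14). The part of these other cells in the results below was not tested. In the neural and muscle sums all IL-1b and LPS libraries lay below those of 0 h and TNF. Comparisons of IL-1b or LPS with 0 h or TNF do not separate this difference from the agent.

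After 3 h of LPS most of the zinc finger genes fell. Of the 226 members, 137 were lower than at 0 h (60.6%, where 28.3% of all genes tested were lower) and 23 were higher (10.2%, where 29.2% of all genes were), in edgeR's quasi-likelihood test at an adjusted p under 0.05. The median change was -0.62 on the log2 scale (quartiles -1.10 and -0.06), against -0.01 over all 14023 genes tested. Falls of at least 1 on the log2 scale numbered 67 and rises of that size 9. The shares of all genes with changes of that size are not given here, so these counts describe the members alone. In the genotypes taken singly the members' median was -0.58 in crel-/- and -0.63 in knock-in cells, beside -0.02 over all genes tested in each. Of the members 165 were lower in both genotypes, 40 higher in both and 21 opposite, and the same counts over all genes are not given here. In 100 members the 2 LPS 3 h libraries were the 2 lowest of 20, which held for 15.7% of all genes tested, and in 21 members they were the 2 highest (16.3% of all genes).

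**Figure D1:**
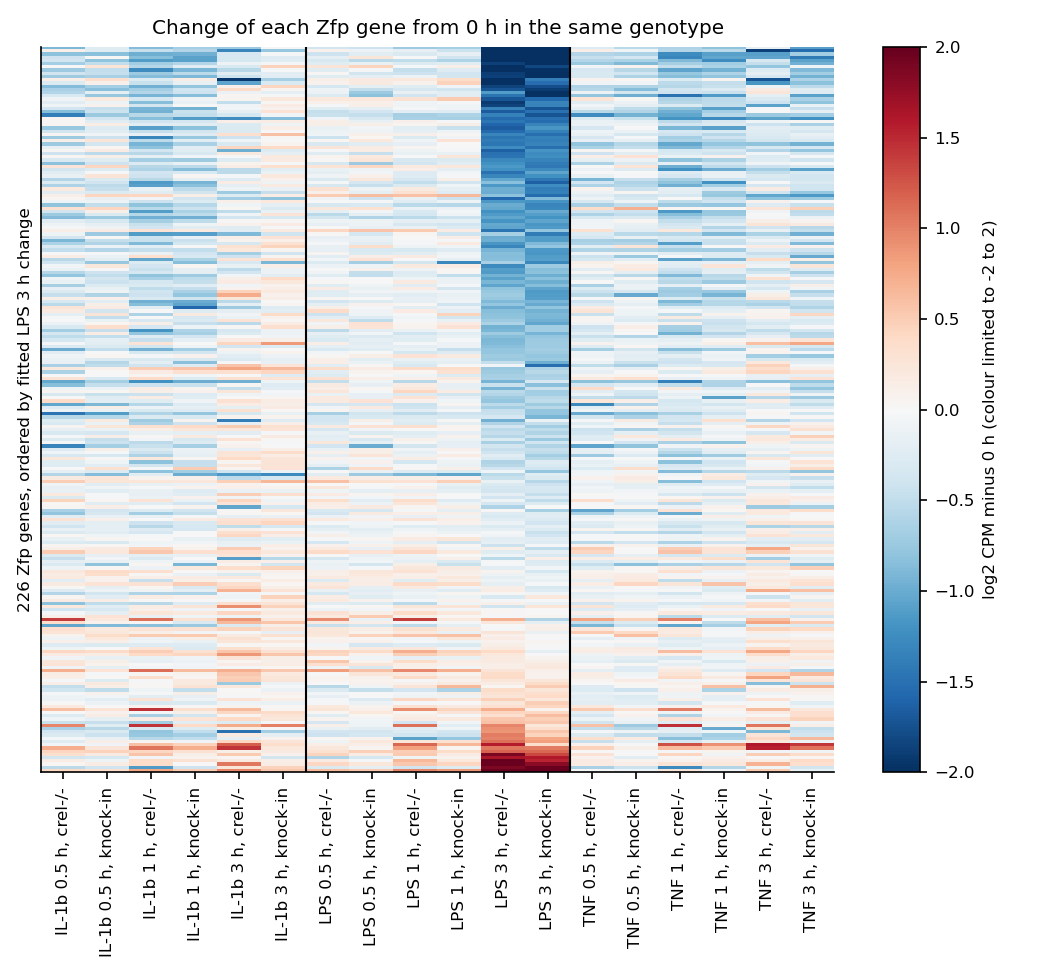
Change of each of the 226 Zfp genes (rows, ordered by the fitted LPS 3 h change) from 0 h in the same genotype, as the difference in log2 CPM, for 9 stimulated conditions in crel-/- and knock-in cells (columns). Blue is lower and red higher. The LPS 3 h columns are blue in most rows in both genotypes, with 165 members lower in both (not counted over all genes). The 1 h columns of IL-1b and TNF are pale blue.

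The members together took 0.769% and 0.747% of the counts at 0 h, between 0.620% and 0.710% in the other stimulated libraries, and 0.429% (crel-/-) and 0.424% (knock-in) at LPS 3 h. The median member stood at 18.9 and 19.1 scaled CPM at 0 h and at 14.0 and 12.0 scaled CPM at LPS 3 h. Another scaling shifts all genes of a library by about the same amount and so cannot change the members' distance from all genes, 0.61 on the log2 scale, but it moves the calls. With library totals alone the median of all genes moved to -0.62 and that of the members to -1.22, and with upper quartile factors to -0.29 and -0.90. With library totals 203 members were lower and 9 higher, and with upper quartile factors 173 and 14. Leaving out any 1 of the 4 libraries behind the comparison left between 121 and 131 members lower.

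**Figure D2:**
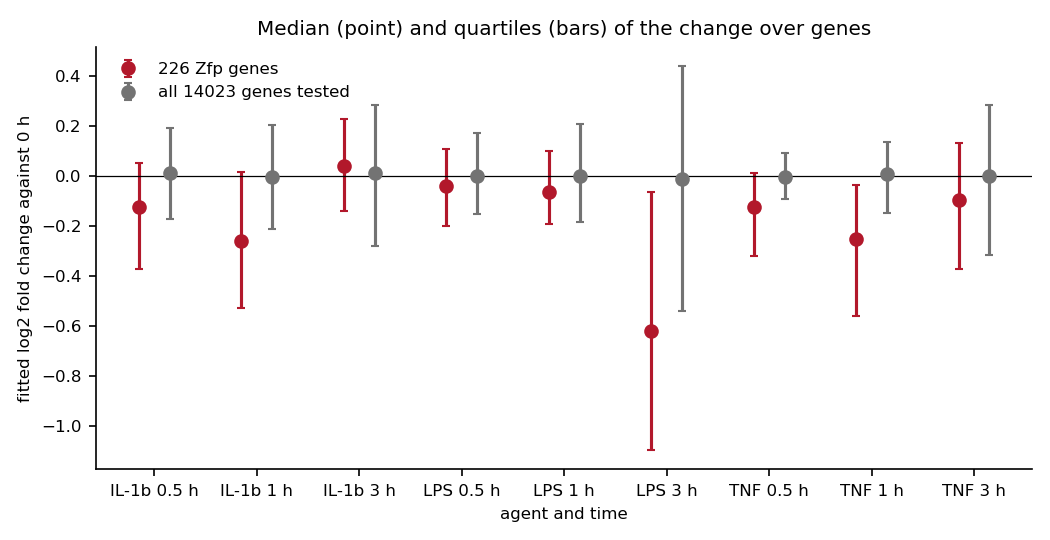
Median (points) and quartiles (bars) of the fitted log2 fold change against 0 h over the 226 Zfp genes (red) and over all 14023 genes tested (grey), for each agent and time. The Zfp median lies at -0.62 after 3 h of LPS and at -0.26 and -0.25 after 1 h of IL-1b and TNF, while the medians of all genes stay within 0.02 of 0.

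Zfp41 (ENSMUSG00000047003.12, chromosome 15, 75616679 to 75625300) showed the steepest fall. It stood at 17.9 (crel-/-) and 16.7 (knock-in) scaled CPM at 0 h, at 1.88 and 1.25 after 3 h of LPS, and between 7.77 and 16.3 in the 16 other stimulated libraries. Both LPS 3 h libraries lay below all others, and the change was -3.47 (SE 0.42, adjusted p = 1.43e-05). Its level after 0.5 and 1 h of LPS, 10.5 to 13.7 scaled CPM, lay between those extremes.

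Zfp395 (ENSMUSG00000034522.9, chromosome 14, 65358676 to 65398930), which carries a single C2H2 finger and no KRAB box, stood at 64.2 and 71.8 scaled CPM at 0 h and at 5.36 (crel-/-) and 9.13 (knock-in) after 3 h of LPS, a change of -3.22 (SE 0.24, adjusted p = 2.5e-07). It fell at 3 h of the other agents too, to 17.4 and 24.5 scaled CPM with TNF (-1.71, SE 0.20, adjusted p = 0.000112) and to 25.6 and 42.3 with IL-1b (-1.01, SE 0.19, adjusted p = 0.00253). All 6 of these 3 h libraries lay below every library of 0, 0.5 and 1 h.

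Zfp760 (ENSMUSG00000067928.6, chromosome 17, 21707741 to 21725636), a KRAB gene with 16 fingers, stood at 14.5 and 13.0 scaled CPM at 0 h and at 2.61 and 1.75 after 3 h of LPS (-2.67, SE 0.19, adjusted p = 7.55e-08). Its neighbour Zfp820 (ENSMUSG00000069743.4, chromosome 17, 21816876 to 21845759), with 12 fingers, stood at 7.82 and 6.96 at 0 h and at 1.16 and 1.38 after 3 h of LPS (-2.52, SE 0.29, adjusted p = 7.08e-06). In both genes the LPS 3 h libraries were the lowest of all 20. Both lie in the run of 19 KRAB genes, of which 13 were lower and 3 higher after 3 h of LPS, with a median of -0.92. Among all genes tested 28.3% were lower and 29.2% higher.

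Of the other members with the largest falls, all with a KRAB box, Zfp248 changed by -2.38 (SE 0.26), Zfp157 by -2.25 (SE 0.20), Zfp667 by -2.19 (SE 0.28) and Zfp30 by -2.14 (SE 0.26). Zfp316 changed by -2.06 (SE 0.18) and Zfp799 by -2.02 (SE 0.19), and adjusted p values of these 6 genes lay between 4.51e-07 and 1.79e-05. In Zfp157 the levels were 23.6 and 22.8 scaled CPM at 0 h and 6.38 (crel-/-) and 3.50 (knock-in) at LPS 3 h, with 11.6 to 22.5 in the other stimulated libraries. For none of the 10 genes with the largest falls was the call lost under another scaling, filter or tool, or without any 1 library of the comparison.

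A minority rose after 3 h of LPS. Zfp945 (ENSMUSG00000059142.13, chromosome 17, 22846697 to 22867134), a KRAB gene with 18 fingers in the same run on chromosome 17 as Zfp760 and Zfp820, stood at 16.4 and 20.2 scaled CPM at 0 h and at 102.9 and 102.3 after 3 h of LPS (2.49, SE 0.13, adjusted p = 5.55e-09). No other library exceeded 37.5 scaled CPM. It stood at 25.5 and 29.6 scaled CPM after 0.5 h of LPS (0.59, SE 0.13, adjusted p = 0.0191), a call lost without crel-/- 0 h (adjusted p = 0.21), crel-/- LPS 0.5 h (0.0588) or knock-in LPS 0.5 h (0.169). At 1 h it stood at 32.7 and 37.5 scaled CPM with LPS (0.94, SE 0.13, adjusted p = 0.000436) and at 28.2 and 28.9 with IL-1b (0.65, SE 0.13, adjusted p = 0.00573). With TNF it stayed between 16.4 and 23.6 scaled CPM at all times.

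Zfp324 (ENSMUSG00000004500.8, chromosome 7, 12965838 to 12974236), also a KRAB gene, stood at 25.0 and 20.7 scaled CPM at 0 h and at 91.7 and 82.2 after 3 h of LPS (1.93, SE 0.17, adjusted p = 7.1e-07), with all other libraries between 10.2 and 29.6. After 1 h it was lower than at 0 h with IL-1b (-0.77, SE 0.19, adjusted p = 0.0141) and TNF (-0.92, SE 0.19, adjusted p = 0.0152). Zfp281 (ENSMUSG00000041483.12, chromosome 1, 136624901 to 136630053), a promoter-binding factor of the pluripotency network without a KRAB box, stood at 41.7 and 47.8 scaled CPM at 0 h and at 163.8 and 166.7 after 3 h of LPS (1.89, SE 0.18, adjusted p = 3.14e-06). Zfp382, a KRAB repressor, stood at 6.29 and 6.45 at 0 h and at 19.9 in both genotypes after 3 h of LPS (1.64, SE 0.15, adjusted p = 9.74e-07), and no other library exceeded 6.91. In each of these genes the LPS 3 h libraries lay above all others.

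Zfp800 rose from 26.3 to 118 scaled CPM in crel-/- and from 25.7 to 74.7 in knock-in cells (1.87, SE 0.16), and Zfp365 from 27.6 to 62.8 and from 28.0 to 62.5 (1.17, SE 0.08). Zfp513 changed by 1.62 (SE 0.13), but its exons overlap those of Snx17 on the opposite strand, and without a stated strand setting of the counting their reads cannot be told apart. Zfp593, which encodes a factor of ribosome assembly, rose by 1.08 (SE 0.25, adjusted p = 0.00223). With library totals in place of TMM its change was 0.48 (adjusted p = 0.0904) and the call was lost.

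**Figure D3:**
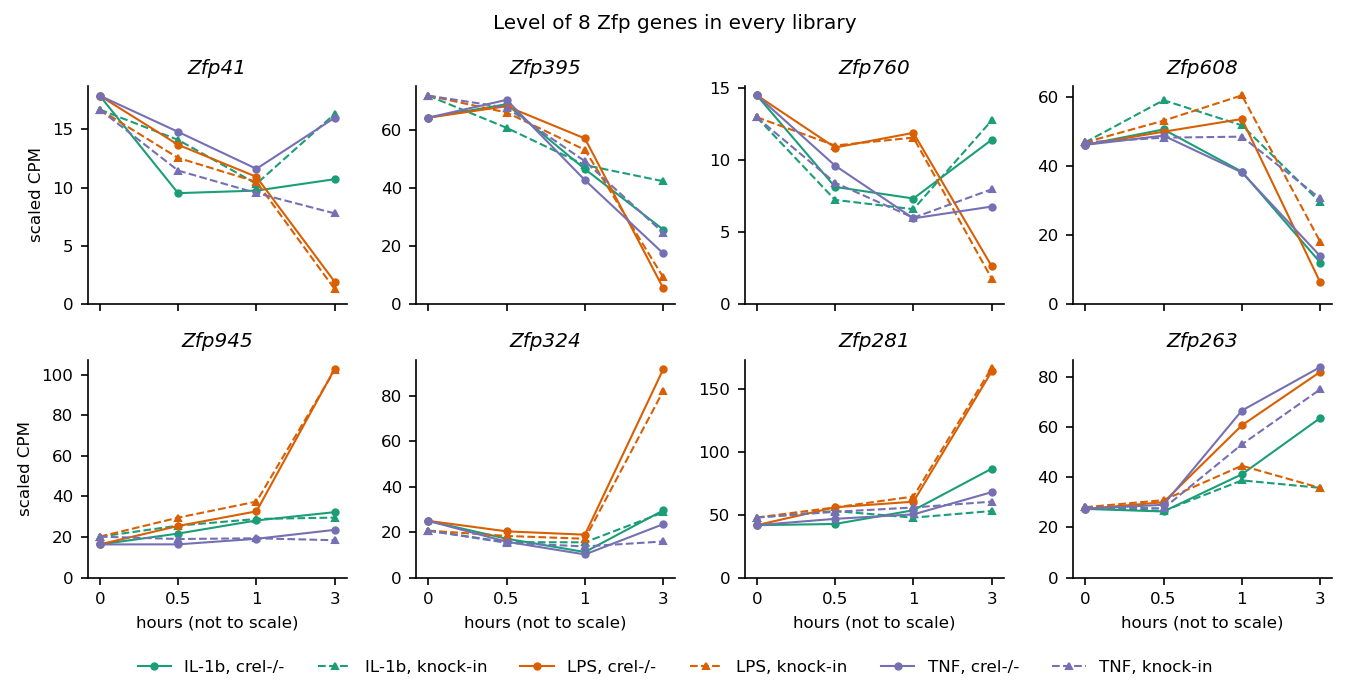
Scaled CPM (vertical axes, from 0) of 8 Zfp genes at 0, 0.5, 1 and 3 h (horizontal axes, not to scale) of IL-1b (green), LPS (orange) and TNF (violet), in crel-/- (circles, solid lines) and knock-in cells (triangles, dashed lines), 1 library per point. In the upper row LPS at 3 h gives the lowest point of each genotype, as in Zfp41 (1.88 and 1.25), and in the lower row LPS at 3 h gives the highest points of Zfp945, Zfp324 and Zfp281, whereas Zfp263 is highest with TNF and LPS in crel-/- cells.

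The late fall was larger with LPS than with the other agents. Against TNF at the same time, 125 members were lower (55.3%, against 24.0% of all genes) and 22 higher (24.3% of all genes), with a median of -0.47. Against IL-1b at 3 h, 145 members were lower (64.2%, against 23.4% of all genes) and 22 higher (23.8% of all genes), with a median of -0.60. These 3 comparisons share the LPS 3 h libraries and are not independent. The members that differed most from TNF were Zfp41 (-2.93, SE 0.43), Zfp553 (-1.80, SE 0.18) and Zfp764 (-1.79, SE 0.33) downwards and Zfp945 (2.28, SE 0.13), Zfp324 (2.14, SE 0.18) and Zfp382 (1.62, SE 0.15) upwards. Zfp764 shares 27.1% of the 50-base words of its transcripts with other genes, so its counts are less certain.

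The change came late. Against 1 h of LPS, 135 members were lower at 3 h (59.7%, against 25.3% of all genes) and 24 higher (25.9% of all genes), and 123 of the 137 members lower than at 0 h were also lower than at 1 h. Both comparisons use the same LPS 3 h libraries, so this overlap is partly built in and adds no separate support. The overlap over all genes is not given here. After 0.5 h of LPS, 1 member was lower (2.46% of all genes were), Zfp449 at -0.49 (SE 0.11, adjusted p = 0.0148), and 3 were higher (3.56% of all genes), Zfp950, Zfp945 and Zfp365. After 1 h of LPS, 12 members were lower (5.31%, against 6.08% of all genes) and 9 higher (3.98%, against 7.58% of all genes), near or below the shares among all genes. Each of these early LPS counts changed when 1 library was left out. Such a fit leaves 1 library at 0 h or at the stimulated condition, and how far that alone lowers the counts was not tested. The members lower at 1 h numbered 2 without crel-/- LPS 1 h and 3 without each of the 3 other libraries, and those higher 3 without crel-/- 0 h, 2 without crel-/- LPS 1 h and 4 without knock-in LPS 1 h. At 0.5 h 2 members were lower without crel-/- LPS 0.5 h and none without crel-/- 0 h, knock-in 0 h or knock-in LPS 0.5 h in edgeR's test (unadjusted, 30 members were lower over all libraries), and the members higher numbered 0 without crel-/- 0 h (16 unadjusted over all libraries) and 1 without knock-in LPS 0.5 h.

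After 1 h of IL-1b or TNF the zinc finger genes were lower as well, by less. The comparisons with 0 h all use the same 0 h libraries, so those of the agents are not independent. With IL-1b, 66 members were lower at 1 h (29.2%, against 7.12% of all genes) and 10 higher (4.42%, against 8.38% of all genes), with a median of -0.26. With TNF, 53 members were lower at 1 h (23.5%, against 1.78% of all genes) and 2 higher, Zfp263 and Zfp622 (2.25% of all genes), with a median of -0.25. At 0.5 h the counts were 37 lower (16.4%, against 5.36% of all genes) and 3 higher (5.75% of all genes) with IL-1b, and 6 lower (2.65%, against 0.0784% of all genes) with TNF. In edgeR's test no member was higher after 0.5 h of TNF (0.314% of all genes were). At an unadjusted p under 0.05 there were 7, and DESeq2 called 1.

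When 1 library was left out, these early counts changed more than those at 3 h of LPS. How far the loss of a library alone lowers the counts was not tested. Without the crel-/- 0 h library the members lower after 1 h numbered 25 with IL-1b and 4 with TNF, without the stimulated crel-/- library 29 and 4, and without the knock-in 0 h or stimulated library 21 and 16 with TNF. At 0.5 h of IL-1b the count of 37 became 9 without crel-/- 0 h, 8 without the stimulated crel-/- library, 19 without knock-in 0 h and 18 without the stimulated knock-in library, and the 6 of TNF became 0 without any 1 of its 4 libraries (61 at an unadjusted p under 0.05 over all libraries, 12 in DESeq2). Both members higher after 1 h of TNF lost their call without each of the 4 libraries, and those higher after 1 h of IL-1b numbered 2 without crel-/- 0 h or crel-/- IL-1b 1 h and 6 without knock-in IL-1b 1 h. Those higher after 0.5 h of IL-1b numbered 1 without either crel-/- library. The medians moved less: at 1 h they stayed between -0.28 and -0.25 with IL-1b and between -0.31 and -0.23 with TNF whichever library was left out. Within each genotype the median at 1 h was -0.27 (crel-/-) and -0.23 (knock-in) with IL-1b and -0.30 and -0.24 with TNF. With IL-1b 146 members and with TNF 159 were lower in both genotypes, counts that are not given for all genes.

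The 3 largest falls at 0.5 h of IL-1b were those of KRAB genes. Zfp748 (23 fingers) stood at 18.3 and 17.5 scaled CPM at 0 h and at 6.54 and 7.94 after 0.5 h of IL-1b (-1.30, SE 0.19, adjusted p = 0.000785). It then stood at 12.0 and 10.1 at 1 h and at 14.4 and 15.7 at 3 h. Zfp870 stood at 11.0 and 11.2 at 0 h, at 4.17 and 6.60 after 0.5 h of IL-1b (-1.05, SE 0.19, adjusted p = 0.00319) and at 8.66 and 10.8 after 3 h. Zfp39 changed by -0.99 (SE 0.16, adjusted p = 0.00172) at 0.5 h of IL-1b, and these 3 calls held without each library in turn. In each gene the 2 libraries of 0.5 h lay below the 2 of 0 h and of 3 h of IL-1b.

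At 1 h of IL-1b the largest falls were those of Zfp174 (-1.14, SE 0.24), Zfp763 (-1.14, SE 0.22) and Zfp248 (-1.12, SE 0.20), of which the call for Zfp174 was lost without crel-/- IL-1b 1 h (adjusted p = 0.0882) or knock-in 0 h (0.0545) and that for Zfp763 without crel-/- 0 h (0.0676). Zfp174 overlaps Zfp597 on the opposite strand. At 1 h of TNF they were those of Zfp61 (-1.32, SE 0.25), Zfp467 (-1.25, SE 0.15) and Zfp820 (-1.21, SE 0.23). The call for Zfp467, a factor that steers bone marrow stromal cells between fat and bone fates, held without each library in turn, at 24.8 and 27.7 scaled CPM at 0 h and 10.7 and 11.4 at 1 h of TNF. Those for Zfp61 and Zfp820 were each lost without 3 of the 4 libraries, with adjusted p values up to 0.139.

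Few members rose early. Zfp950, a KRAB gene, stood at 15.1 and 15.8 scaled CPM at 0 h, at 33.1 and 24.5 after 1 h of IL-1b (0.89, SE 0.12, adjusted p = 0.000462), at 29.5 and 26.3 after 1 h of LPS (0.85, SE 0.13, adjusted p = 0.000582) and at 17.3 and 13.2 after 1 h of TNF. It overlaps Grk5 on the opposite strand. Zfp57, which maintains methylation at imprinted genes, stood at 12.7 and 16.4 scaled CPM at 0 h and at 35.0 (crel-/-) and 20.5 (knock-in) after 1 h of IL-1b (0.92, SE 0.22, adjusted p = 0.0155). Without crel-/- 0 h or crel-/- IL-1b 1 h its adjusted p was 0.184 or 0.215.

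By 3 h of IL-1b the early fall was no longer seen: 23 members were lower (10.2%, against 13.8% of all genes) and 30 higher (13.3%, against 16.9% of all genes), with a median of 0.04. After 3 h of TNF, 52 were lower (23.0%, against 16.0% of all genes) and 20 higher (8.85%, against 18.7% of all genes), with a median of -0.09. Without crel-/- 0 h or crel-/- IL-1b 3 h, 9 or 6 members were lower and 8 or 11 higher with IL-1b, and 19 were higher without knock-in 0 h. With TNF the members lower numbered 20 without crel-/- 0 h, 30 without knock-in 0 h and 22 without knock-in TNF 3 h, and the members higher 11 without crel-/- 0 h and 12 without knock-in TNF 3 h. Zfp467 was lower at 3 h of IL-1b (-1.03, SE 0.15, adjusted p = 0.000336) and TNF (-1.15, SE 0.15, adjusted p = 0.00015).

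Zfp469, whose human counterpart is linked to corneal matrix disease, went one way with the cytokines and the other with LPS. It stood at 16.2 and 19.0 scaled CPM at 0 h, at 24.6 and 32.5 after 3 h of TNF (0.69, SE 0.16, adjusted p = 0.00578), at 21.8 and 34.4 after 3 h of IL-1b (0.67, SE 0.16, adjusted p = 0.00813) and at 8.70 and 11.5 after 3 h of LPS (-0.80, SE 0.19, adjusted p = 0.00219). LPS and TNF at 3 h differed by -1.49 (SE 0.18, adjusted p = 1.48e-05). Without knock-in TNF 3 h its rise with TNF was 0.58 (adjusted p = 0.0562). Zfp462, a large chromatin-associated factor with 33 fingers by this search, did the reverse: it was lower at 3 h of IL-1b (-1.03, SE 0.20, adjusted p = 0.00273) and TNF (-0.65, SE 0.20, adjusted p = 0.0222) and higher at 3 h of LPS (0.72, SE 0.19, adjusted p = 0.00581), with 72.3 and 75.7 scaled CPM there and at most 51.7 in the other libraries.

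The members were also counted by KRAB box. After 3 h of LPS 79 of 110 KRAB members were lower (71.8%) and 8 higher, with a median of -0.85, and of the 115 without the box 57 were lower (49.6%) and 15 higher, with a median of -0.32. After 1 h of IL-1b 45 of 110 were lower (40.9%, median -0.37) against 21 of 115 (18.3%, median -0.15), and after 1 h of TNF 40 (36.4%, median -0.50) against 13 (11.3%, median -0.14). At 3 h of IL-1b the order was the other way: 1 of 110 KRAB members was lower against 22 of 115 without the box (19.1%), while 9 and 20 were higher. Among all genes 13.8% were lower and 16.9% higher at 3 h of IL-1b, and 28.3% and 29.2% at 3 h of LPS. At 1 h 7.12% of all genes were lower with IL-1b and 1.78% with TNF. These are counts, and the difference between the classes was not tested.

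**Figure D4:**
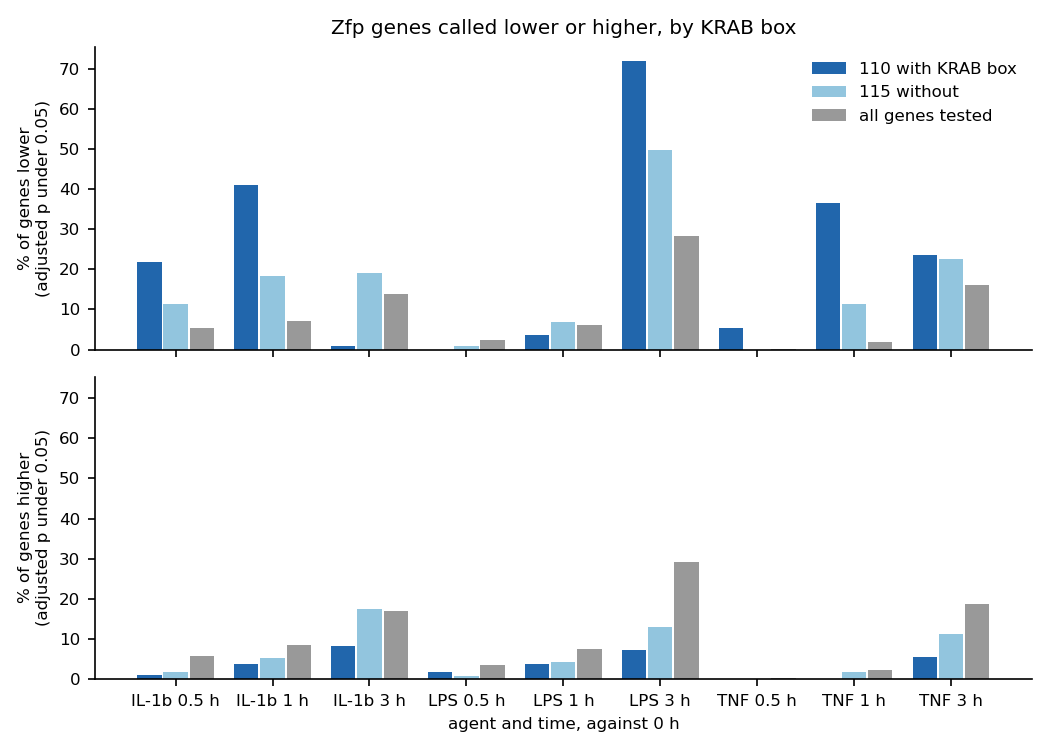
Percent of genes lower (upper panel) and higher (lower panel) than at 0 h at an adjusted p under 0.05, for the 110 Zfp genes with a KRAB box (dark blue), the 115 without (light blue) and all 14023 genes tested (grey), by agent and time. In each Zfp class the tallest bar is that for lower genes at LPS 3 h (71.8% with and 49.6% without the box, beside 28.3% of all genes), and no Zfp class exceeds the share of all genes among higher genes except the class without the box at IL-1b 3 h (17.4% against 16.9%).

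Level and KRAB box went together, and the fall at 3 h of LPS was graded by level as well. The median change was -0.92 in 67 members of 5 to 10 CPM, -0.82 in 54 members of 10 to 20 CPM, -0.29 in 68 members of 20 to 50 CPM and -0.24 in 37 members of 50 CPM or more, with 47, 38, 35 and 17 lower. Of 98 tested Zfp genes below the 5 CPM limit 62 were lower (63.3%) and 3 higher, with a median of -1.28. Among all genes of at least 5 CPM 29.9% were lower, with a median of 0.02. By finger number 21 of 43 members with up to 4 fingers were lower at LPS 3 h, 23 of 42 with 5 to 8, 50 of 74 with 9 to 12 and 42 of 66 with 13 or more. The level is the mean over all 20 libraries, those of LPS 3 h among them, so a fall itself lowers it. Shares of all genes within the same bands of level are not given here. The parts of level, finger number and KRAB box were not separated.

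The fall was spread over the genome. On chromosome 7, 37 of 54 members were lower after 3 h of LPS (median -0.66), on chromosome 17, 22 of 31 (median -0.92) and on the other chromosomes 78 of 141 (median -0.44). Of all genes tested 28.3% were lower and 29.2% higher, and shares of all genes on single chromosomes are not given here. All 11 runs of 4 or more neighbours within 500 kb, which together held 85 members, had negative medians, from -0.52 to -1.18. In the run on chromosome 7 between 29768552 and 30169727, 9 of 10 members were lower, among them Zfp30 and Zfp568, and the remaining one, Zfp382, was higher. On chromosome 17 between 32771236 and 33631779, 7 of 8 members were lower.

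Because KRAB zinc finger genes arose by duplication, reads of related members may match more than 1 gene. Of the 50-base words (the read length) in the annotated transcripts of a member, a median of 0.103% also occurred in transcripts of another gene, and the largest share was 54.5%, in Zfp984. Of the 194 members with less than 5% of shared words 114 were lower after 3 h of LPS and 23 higher, with a median of -0.58. Among all genes 28.3% were lower and 29.2% higher. Of the 32 members with 5% or more, 23 were lower, with a median of -0.70. Of the 8 members with 20% or more, 6 were lower, with a median of -1.02. The part of shared words in the fall was not tested. Counts of the 32 members with 5% or more are uncertain, since the treatment of reads with several matches is not given in the sources used here.

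RefSeq promoters (GRCm38.p6, 250 bases before to 50 after a start) were matched for 183 of the 226 members, 225 promoters in all. They held a median of 17 of the dinucleotide CG per promoter, against 7 over all 32851 promoters. Those belong to 27025 genes, expressed here or not, whereas the members were chosen by level. Level and family cannot be told apart in this comparison. The promoters of 3 neighbours on chromosome 17 of which 2 fell and 1 rose, and of Zfp281, are shown to let their CG content be compared. CG dinucleotides are in capitals: 12 at chr17:21707491-21707790 (Zfp760, plus strand), 9 at chr17:21845710-21846009 (Zfp820, minus strand), 7 at chr17:22867085-22867384 (Zfp945, minus strand) and 27 at chr1:136624651-136624950 (Zfp281, plus strand).
Zfp760: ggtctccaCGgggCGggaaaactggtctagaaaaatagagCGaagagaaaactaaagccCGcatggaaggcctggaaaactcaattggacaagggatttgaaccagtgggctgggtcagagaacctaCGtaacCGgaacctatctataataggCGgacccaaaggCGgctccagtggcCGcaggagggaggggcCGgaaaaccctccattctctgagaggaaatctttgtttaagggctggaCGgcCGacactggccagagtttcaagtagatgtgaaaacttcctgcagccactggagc
Zfp820: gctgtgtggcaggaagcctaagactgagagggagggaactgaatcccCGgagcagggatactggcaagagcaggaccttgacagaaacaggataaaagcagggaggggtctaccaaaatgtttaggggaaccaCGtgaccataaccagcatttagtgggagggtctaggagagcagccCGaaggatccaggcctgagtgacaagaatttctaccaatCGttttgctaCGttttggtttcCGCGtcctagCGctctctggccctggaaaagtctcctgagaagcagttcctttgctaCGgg
Zfp945: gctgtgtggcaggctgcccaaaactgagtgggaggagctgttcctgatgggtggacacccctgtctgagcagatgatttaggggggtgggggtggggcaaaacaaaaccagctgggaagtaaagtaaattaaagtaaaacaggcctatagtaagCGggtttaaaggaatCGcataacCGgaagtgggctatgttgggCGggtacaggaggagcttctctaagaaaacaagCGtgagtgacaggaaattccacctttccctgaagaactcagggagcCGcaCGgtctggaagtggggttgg
Zfp281: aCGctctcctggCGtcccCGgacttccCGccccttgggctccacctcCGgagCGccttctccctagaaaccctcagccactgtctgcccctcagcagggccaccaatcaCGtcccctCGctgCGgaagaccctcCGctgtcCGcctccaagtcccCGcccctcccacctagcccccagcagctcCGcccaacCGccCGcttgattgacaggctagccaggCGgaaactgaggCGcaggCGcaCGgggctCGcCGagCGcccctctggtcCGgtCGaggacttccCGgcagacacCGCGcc

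Short motifs were searched on both strands of these promoters, and none of the motifs contains another. CCGGAAG, the core read by ETS factors, was present in 20.4% of the members' promoters and in 8.86% of all promoters, and ATGGCGG, a core of YY1 sites, in 11.1% and 4.05%. ACTACAA, the start of the site read by Zfp143, was present in 6.22% and 3.24%, CCAAT in 42.7% and 37.4% and TGACGTCA in 3.11% and 1.79%. TATAAA was rarer among the members (7.56% against 13.6%), and the kappa B motif of NF-kB was about as frequent (9.78% against 8.46%). The interferon response element, searched as GAAA repeated after a gap of 2 bases, was present in 2.22% and 3.44%. Among the promoters of the members that were lower at LPS 3 h, 135 promoters of 112 genes, the share with CCGGAAG was 21.5% and with the kappa B motif 8.89%, and among those of the members that were higher, 21 promoters of 18 genes, 19.0% and 14.3%. These shares describe letters and not binding, and neighbouring members may share promoter sequence by descent. Here too all promoters include those of genes not expressed in these cells, so level and family cannot be told apart.

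Members with known roles in the cell were described by role, and their counts at LPS 3 h stand beside 28.3% lower and 29.2% higher among all genes tested. Among 9 genes of RNA and ribosome biology, 2 were lower (22.2%) and 3 higher (33.3%) after 3 h of LPS, near those shares, with a median of 0.01. Zfp207, a spindle and splicing factor, rose (0.42, SE 0.07, adjusted p = 0.000207), as did the RNA-binding Zfp106 (0.31, SE 0.06, adjusted p = 0.000501), the member with the highest mean count, at 236 and 225 scaled CPM at 0 h and 289 and 283 at LPS 3 h. Zfp346, a binder of double-stranded RNA, fell (-0.62, SE 0.12, adjusted p = 0.000668), as did Zfp638 (-0.43, SE 0.08, adjusted p = 0.000403). Zfp598, the ubiquitin ligase that senses collided ribosomes, was higher at 3 h of TNF (0.68, SE 0.12, adjusted p = 0.00093) and IL-1b (0.50, SE 0.12, adjusted p = 0.00696) and changed by -0.05 (SE 0.12) at 3 h of LPS. Zfp622, a factor of large ribosomal subunit maturation, was higher after 1 h of IL-1b (0.44, SE 0.10, adjusted p = 0.00933).

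Of 6 promoter-binding factors 2 were lower (33.3%, against 28.3% of all genes) and 1 higher (16.7%, against 29.2%) after 3 h of LPS, counts too small to set apart from those shares. Besides Zfp281, Zfp148 changed by -0.24 (SE 0.06, adjusted p = 0.00365) and Zfp740 by -0.35 (SE 0.06, adjusted p = 0.000176). Zfp143, a factor of housekeeping promoters (-0.13, SE 0.15), Zfp335 (0.05, SE 0.10) and Zfp410, the activator of Chd4 (-0.23, SE 0.10), did not pass the test. Of 7 partners of corepressor, ubiquitin or SUMO pathways 3 were lower (42.9%) and 1 higher (14.3%): Zfp91, a ubiquitin ligase of the noncanonical NF-kB pathway (-0.32, SE 0.07, adjusted p = 0.00103), Zfp687 (-0.35, SE 0.09, adjusted p = 0.00458) and Zfp644 (-0.22, SE 0.08, adjusted p = 0.0304) fell, and Zfp516, a cofactor of brown fat genes, rose (0.38, SE 0.08, adjusted p = 0.00142). Zfp217 (0.30, SE 0.14), Zfp592 (0.13, SE 0.09) and the SUMO ligase Zfp451 (-0.14, SE 0.09) did not pass.

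Among 10 factors of mesenchymal and neural development 6 were lower (60.0%, against 28.3% of all genes) and 1, Zfp462, higher after 3 h of LPS, with a median of -0.90. Zfp703, a corepressor and the highest member per kilobase, stood at 132 and 124 scaled CPM at 0 h, at 47.2 and 52.8 after 3 h of LPS and between 109 and 151 in every other stimulated library (-1.36, SE 0.07, adjusted p = 4.09e-09). Zfp292 stood at 69.9 and 65.1 at 0 h and at 31.5 and 24.1 after 3 h of LPS (-1.28, SE 0.12, adjusted p = 1.19e-06). Zfp423, which commits cells to the fat lineage, changed by -0.99 (SE 0.23, adjusted p = 0.00186), and Zfp467 by -1.53 (SE 0.16, adjusted p = 3.16e-06). Zfp521, an antagonist of Zfp423, stood at 214 and 189 scaled CPM at 0 h and changed by -0.30 (SE 0.15, adjusted p = 0.118) after 3 h of LPS, while it was lower at 3 h of TNF (-0.70, SE 0.15, adjusted p = 0.00485) and IL-1b (-0.68, SE 0.15, adjusted p = 0.00699). Zfp503 (-0.40, SE 0.18) and Zfp609 (-0.22, SE 0.12) did not pass at 3 h of LPS.

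Of 8 KRAB genes listed for silencing of retroelements or imprinted genes, 4 met the level limit. Zfp809, which silences murine leukaemia virus sequences, stood at 10.6 and 8.74 scaled CPM at 0 h and at 5.94 and 4.63 after 3 h of LPS (-0.89, SE 0.20, adjusted p = 0.00178). Zfp568, which represses a placental transcript of Igf2, stood at 31.4 and 26.9 at 0 h and at 15.4 and 10.9 (-1.16, SE 0.14, adjusted p = 1.35e-05). In both genes these were the 2 lowest libraries. Zfp445 (-0.10, SE 0.13) and Zfp57 (0.39, SE 0.24), which act together at imprinted genes, did not pass.

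The partners through which KRAB proteins act were counted from a list. Of 23 listed genes 21 were tested, and 11 were lower (52.4%, against 28.3% of all genes) and 5 higher (23.8%, against 29.2%) after 3 h of LPS, with a median of -0.17. Trim28, which binds the KRAB box, changed by -0.28 (SE 0.05, adjusted p = 0.000552), the histone methyltransferase gene Setdb1 by -0.27 (SE 0.08, adjusted p = 0.0124) and its partner Atf7ip by -0.94 (SE 0.10, adjusted p = 4.85e-06). Uhrf1 (-1.59, SE 0.30, adjusted p = 0.000751) and Dnmt1 (-0.63, SE 0.12, adjusted p = 0.000454), which copy DNA methylation at replication, fell too. Of the HUSH silencing complex and its effector, Mphosph8 (-0.80, SE 0.14) and Morc2a (-0.69, SE 0.08) fell and Pphln1 rose (0.66, SE 0.07), with adjusted p values of 4.89e-06 to 0.00022. Resf1, a partner of Setdb1, rose by 2.37 (SE 0.35, adjusted p = 0.000195).

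Other zinc finger families were counted at the same level limit. Of 14 Zscan and Zkscan genes 9 were lower at LPS 3 h (64.3%, median -0.52) and none higher, beside 60.6% of the members (median -0.62) and 28.3% of all genes, and of 34 Zbtb genes, which carry a BTB domain, 14 were lower (41.2%) and 9 higher, with a median of -0.19. At 1 h of TNF 4 of 14 and 2 of 34 were lower, with medians of -0.31 and -0.07, beside 53 of 226 members with a median of -0.25.

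Between the genotypes the zinc finger genes differed little. Knock-in against crel-/- over the 10 matched pairs, 7 members were lower (3.1%, against 7.81% of all genes) and 4 higher (1.77%, against 7.99% of all genes), with a median of 0.00, so both shares lay below those of all genes. The 10 pairs are conditions and not repeats of a genotype from separate embryos, as far as the labels say. The allele and other differences between the cell preparations therefore cannot be told apart, here or in the comparison of late and early pairs below. Zfp429, a KRAB gene, was lower in the knock-in cells (-0.93, SE 0.18, adjusted p = 0.00316). It stood between 4.03 and 11.4 scaled CPM in crel-/- and between 2.19 and 7.65 in knock-in cells, ranges that overlap, and it shares 25.0% of its 50-base words with other genes. Zfp275 stood between 81.2 and 141 scaled CPM in crel-/- and between 74.0 and 90.3 in knock-in cells (-0.30, SE 0.05, adjusted p = 0.000951), and Zfp46 was lower by 0.26 (-0.26, SE 0.06, adjusted p = 0.00836).

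Zfp462 was higher in the knock-in cells, at 31.9 to 75.7 against 13.9 to 72.3 scaled CPM (0.51, SE 0.09, adjusted p = 0.00188), as were Zfp655 (0.22, SE 0.05, adjusted p = 0.0129) and Zfp219 (0.21, SE 0.04, adjusted p = 0.0019). Zfp219 overlaps Arhgef40 on the opposite strand. Leaving out 1 pair of libraries changed the counts to between 3 and 7 members lower and between 3 and 7 higher. The lower count was 3 without the IL-1b 1 h, LPS 0.5 h, LPS 1 h or TNF 1 h pair and 4 without the LPS 3 h pair, and the higher count was 7 without the TNF 3 h pair.

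The genotype difference at 3 h departed from that at 0 to 1 h in 7 members, 2 downwards (0.885%, against 2.78% of all genes) and 5 upwards (2.21%, against 2.92% of all genes). The clearest was Zfp608, a developmental regulator of the same family as Zfp609. In crel-/- cells it stood at 46.2 scaled CPM at 0 h and fell to 12.0, 6.23 and 13.9 after 3 h of IL-1b, LPS and TNF, and in knock-in cells it stood at 46.9 and at 29.5, 18.0 and 30.6. The knock-in library was the higher in all 3 pairs of 3 h, by 1.13 to 1.50 on the log2 scale, and differed by -0.02 to 0.43 in the 7 earlier pairs, and the late and early pairs differed by 1.10 (SE 0.12, adjusted p = 0.000173). Zfp395 had the same order (0.64, SE 0.11, adjusted p = 0.00305), with 3 h pairs at 0.49 to 0.75 and earlier pairs at -0.18 to 0.20, as had Zfp704 (0.61, SE 0.10, adjusted p = 0.0022), with 0.57 to 0.64 and -0.30 to 0.15.

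**Figure D5:**
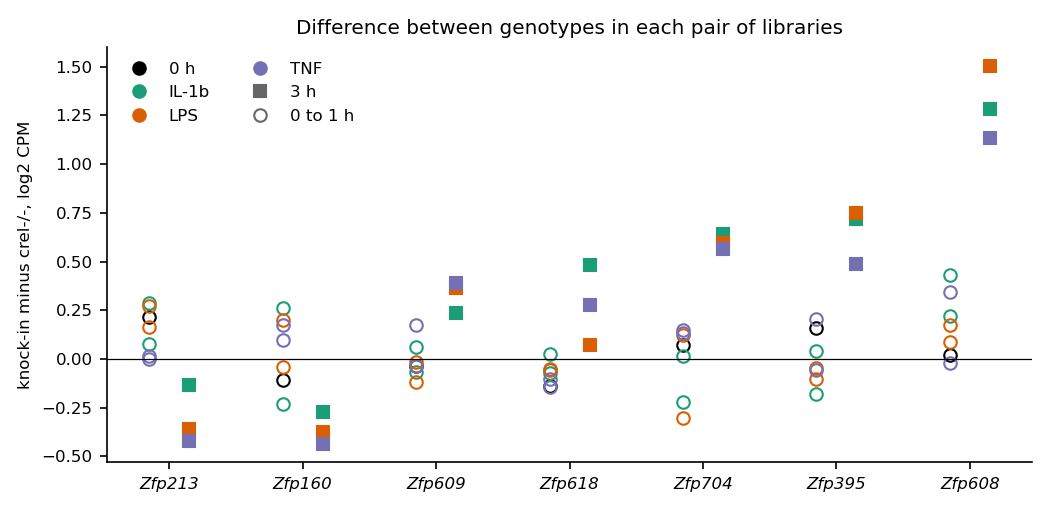
Knock-in minus crel-/- difference in log2 CPM (vertical axis) in each of the 10 matched pairs of libraries for the 7 Zfp genes whose difference at 3 h departed from the earlier one. Filled squares are 3 h, open circles 0 to 1 h, and colours the agents; in Zfp608 the squares lie at 1.13 to 1.50 and the circles between -0.02 and 0.43.

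Zfp263, in which the search found no KRAB box, shows values that differ between genotypes at 3 h without a passed test of that difference. It stood at 27.4 and 28.1 scaled CPM at 0 h. At 3 h the crel-/- and knock-in libraries stood at 63.6 and 35.8 with IL-1b, 82.0 and 35.8 with LPS and 83.9 and 75.1 with TNF. It was higher than at 0 h after 3 h of TNF (1.51, SE 0.26, adjusted p = 0.00159) and of LPS (1.03, SE 0.27, adjusted p = 0.00646). After 3 h of IL-1b (0.80, SE 0.27, adjusted p = 0.0404) the call was lost without crel-/- 0 h (adjusted p = 0.259), crel-/- IL-1b 3 h (0.339) or knock-in 0 h (0.0632).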

How the data were processed

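The 226 members, the gene lists and the comparisons were chosen with earlier results of these data known. Per the labels' protocols, libraries were made from polyadenylated RNA with a stranded kit and read as single ends of 50 bases. STAR, DESeq2, featureCounts 1.5.1 and cutadapt 1.12 are named with the build mm10, per the submitters' processing notes. How the aligner was set, which annotation and strand option were counted on, and how reads with more than 1 match were handled is not given in the sources used here. What the authors deposited are whole-number counts per gene, not normalized, for all 20 libraries, and columns were tied to libraries through genotype, agent and hours in their names. Symbols were matched for 45143 of 45706 genes (98.8%).

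The 14023 genes that reached 1 CPM in 2 or more libraries were tested with edgeR 4.0.16 and its quasi-likelihood test (robust, TMM scaling) and a model of genotype and condition (9 residual degrees of freedom), so the genotypes serve as the repeat of each condition. The change of the genotype difference at 3 h came from an added interaction term (8 residual degrees of freedom). P-values were Benjamini-Hochberg adjusted over all genes tested, with a threshold of 0.05, and the SE of a log2 fold change was obtained by dividing it by the root of its F. For single libraries, log2 CPM was computed with the prior count set to 2. The fit was checked on simulated counts.

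Named members are the 10 largest falls and 8 largest rises at LPS 3 h, the 3 largest each way in the other comparisons, the 5 highest per kilobase, those at the level limit and the role lists. The difference of LPS and IL-1b at 3 h and of LPS at 3 and 1 h were named by counts only, and Zfp142, Zfp618 and Zfp984 were named after their values were seen, as the motifs were chosen. Fingers were counted with a pattern (cysteines 2 to 4 residues apart, 12 residues, histidines 3 to 5 apart) and the KRAB box with a position table of 41 residues built from 176 matches, on translations of the GENCODE vM21 coding sequences, since no protein table was used here. Scores under 40 held for 8 of the KRAB calls. Promoters came from RefSeq.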

Additional observations from a re-analysis of the deposited data

Results flagged for a closer look

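In 7 members the knock-in minus crel-/- difference at 3 h departed from that at 0 to 1 h in the interaction test of edgeR, with 3 late and 7 early pairs of libraries. Zfp608 (1.10), Zfp395 (0.64) and Zfp704 (0.61) are described above. Zfp618 (0.35, SE 0.09, adjusted p = 0.0252) had late pairs at 0.07 to 0.48 and early pairs at -0.14 to 0.03, and Zfp609 (0.33, SE 0.07, adjusted p = 0.0138) at 0.23 to 0.39 and -0.12 to 0.18. Downwards, Zfp213 (-0.46, SE 0.13, adjusted p = 0.0466) had late pairs at -0.42 to -0.13 and early pairs at 0.00 to 0.29, and Zfp160 (-0.41, SE 0.11, adjusted p = 0.045) at -0.43 to -0.27 and -0.23 to 0.26. In each of the 7 genes the late and early pairs did not overlap. The genes were picked by the test on these same pairs, so this adds no support to the calls. Both downward calls were lost in most alternatives, with adjusted p values of up to 0.146 (Zfp213) and 0.122 (Zfp160). The downward count of 2 became 0 without the 0 h, IL-1b 0.5 h, LPS 0.5 h, LPS 1 h or TNF 0.5 h pair, 1 without the LPS 3 h, TNF 1 h or TNF 3 h pair and 6 without the IL-1b 3 h pair, while the upward count stayed between 4 and 6.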

How the results depend on the processing

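The members' median change kept its sign in all alternatives run for LPS 3 h, for IL-1b and TNF at 1 h and for LPS 3 h against TNF 3 h and LPS 1 h, and no named gene reversed. Of the values for named genes under alternatives, 848 kept their call and 107 lost it. With library totals in place of TMM the members lower were 106 (IL-1b 1 h), 37 (IL-1b 3 h), 13 (LPS 0.5 h), 38 (LPS 1 h), 84 (TNF 3 h), 189 (LPS 3 h against TNF 3 h) and 0 (genotype at 3 h against earlier). Those higher were 6 (IL-1b 1 h), 10 (IL-1b 3 h), 5 (LPS 1 h), 9 (LPS 3 h), 1 (TNF 1 h), 11 (TNF 3 h), 10 and 9 (LPS 3 h against TNF 3 h and IL-1b 3 h) and 12 (against LPS 1 h). With upper quartile factors the members lower were 3 (LPS 0.5 h), 81 (TNF 3 h) and 0 (genotype at 3 h), and those higher 14 (IL-1b 3 h, LPS 3 h and LPS 3 h against 1 h), 1 (TNF 1 h) and 11 (TNF 3 h). Over all genes, 9108 were lower and 1707 higher at LPS 3 h with library totals and 6403 and 2602 with upper quartile factors, against 3962 and 4099 with TMM. Without a count filter the values were 5 higher (LPS 1 h), 1 higher (TNF 1 h) and 3 and 0 lower (genotype, and genotype at 3 h), the last being 1 with a 5 CPM filter and 0 in DESeq2. DESeq2 called 12 lower and 1 higher at TNF 0.5 h. A member limit of 2 CPM gave 2 lower at LPS 0.5 h, and one of 10 CPM, which leaves 159 members, gave 90 lower at LPS 3 h and 34 at TNF 1 h. Without the 2 LPS 3 h libraries 5 members were higher at IL-1b 0.5 h and 6 at LPS 0.5 h. Leaving out 1 library (for the genotype results, 1 matched pair) gave, lower and higher in turn, members in the ranges 8 to 19 and 1 to 3 (IL-1b 0.5 h), 25 to 44 and 2 to 8 (IL-1b 1 h), 6 to 25 and 8 to 25 (IL-1b 3 h), 0 to 2 and 0 to 2 (LPS 0.5 h), 2 to 3 and 2 to 6 (LPS 1 h), 121 to 131 and 19 to 22 (LPS 3 h), 0 to 0 and 0 to 0 (TNF 0.5 h), 4 to 21 and 0 to 0 (TNF 1 h), 20 to 45 and 11 to 16 (TNF 3 h), 126 to 137 and 16 to 21 (LPS 3 h against IL-1b 3 h), 114 to 124 and 17 to 22 (LPS 3 h against LPS 1 h), 101 to 119 and 19 to 21 (LPS 3 h against TNF 3 h), 3 to 7 and 3 to 7 (genotype) and 0 to 6 and 4 to 6 (genotype at 3 h). Otherwise the cause of these shifts was not tested. No paired analysis was possible because the groups, of 1 library each, share fewer than 2 replicate numbers. This concerns replicate numbers alone, since the model itself pairs the genotypes by condition. Counting depth limits the members near 5 CPM, and 1 library per group limits all comparisons.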
